A study of Mus musculus with 6 samples.

Results

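Itch is carried from the skin by a small set of sensory neurons whose cell bodies lie in the dorsal root ganglia, the clusters beside the spinal cord. The genes described here are 4 peptides linked to itch (Nppb, Sst, Grp and Nmb) and 6 receptors that detect or mark itch (Il31ra, Cysltr2, Mrgprd, Mrgpra3, Mrgprx1 and Mrgprb4). They were chosen by symbol from the 38926 symbols of the deposited tables, and all 10 were found and tested. RNA came from whole ganglia at lumbar levels L3, L4 and L5 of wild type male C57BL/6 mice aged 6 to 8 weeks. The study has 3 libraries of ganglia collected 3 days after a burn injury (burn) and 3 labelled control. What the controls received is not stated in the labels. The library called burn 3 is titled as ipsilateral and carries no number, and the side of the other libraries is not given. Whether each library is a separate animal is not stated, so p-values reflect the spread among these libraries, which may be technical. The labels call the tissue neurons while describing extraction from whole ganglia.

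In the ganglion, itch neurons are known in 3 classes of non-peptidergic neurons. One class carries Mrgprd, the receptor of beta-alanine. Another carries Mrgpra3, the receptor of the antimalarial chloroquine, with Mrgprx1, which answers to a fragment of the proenkephalin precursor. The third class carries Nppb and Sst together with the interleukin-31 receptor Il31ra and the leukotriene receptor Cysltr2. Nppb encodes B-type natriuretic peptide, which these neurons release in the spinal dorsal horn onto cells bearing Npr1. Sst encodes somatostatin, which quiets inhibitory spinal neurons. Grp encodes gastrin-releasing peptide, a transmitter of itch relay neurons in the dorsal horn, and Nmb the related neuromedin B. Mrgprb4 marks fine fibres of hairy skin that respond to stroking.

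The upstream sequences of Nppb and Sst are shown because the same neurons make both peptides and because both read lowest in burn 2. They are the 120 bases before the RefSeq start site in GRCm38.p6, 5′ to 3′ on the gene's strand, Nppb on the plus strand at chr4:147985780-147985899 and Sst on the minus strand at chr16:23890845-23890964. GENCODE places the first exon of both genes further upstream, within these windows. Capitals mark the GATA core AGATAA and the TATA box TATAAA in Nppb, and the cyclic-AMP response element TGACGTCA in Sst.
Nppb: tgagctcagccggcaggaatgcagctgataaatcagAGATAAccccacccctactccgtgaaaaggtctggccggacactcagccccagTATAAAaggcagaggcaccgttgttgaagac
Sst: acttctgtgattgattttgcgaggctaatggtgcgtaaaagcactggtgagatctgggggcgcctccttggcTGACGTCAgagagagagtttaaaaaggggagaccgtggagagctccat

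The cyclic-AMP response element began 48 bases before the Sst start site. Over 32851 RefSeq promoter windows of 300 bases, 250 before the start and 50 after, 1.79% held these 8 letters, which read the same on both strands. Of the 8 members with a promoter entry, Sst alone held them. The GATA core, searched on both strands as AGATAA only, began 84 bases before the Nppb start site. Other GATA letters, such as the tgataa in the Nppb sequence, were not searched. AGATAA occurred in 11.2% of all windows and in 2 of the 8, Nppb and Mrgprx1. The TATA box of Nppb began 31 bases before its start, and this motif occurred in 13.6% of all windows and in 2 of the 8, Nppb and Mrgprb4. The AP-1 element TGAGTCA, the class of site that injury-induced Jun and Fos proteins bind, was in 5.2% of all windows and in 0 of the 8. The Runx core TGTGGT, the site class of Runx1, a factor of non-peptidergic neurons, was in 16.8% of all windows and in 1 of the 8, Nmb. A match of letters is a description and not a bound site.

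Somatostatin-14, an active peptide of Sst, is the last 14 residues of a precursor of 116 codons. The 42 bases of GRCm38 that encode it lie in the last exon on the minus strand at chr16:23889732-23889773. They are shown as the part of the transcript that encodes this peptide.
Sst, somatostatin-14: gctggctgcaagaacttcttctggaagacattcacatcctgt

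The 4 Mrgpr receptors are compared next because reads that fit several relatives cannot be assigned to one. The stretch is the ungapped 60 bases of coding sequence in which most bases, 37, were shared by all 4, read 5′ to 3′ from GENCODE transcripts on GRCm38. Capitals mark bases that differ from Mrgpra3. Mrgpra3 is at chr7:47589732-47589791, Mrgprx1 at chr7:48021589-48021648 and Mrgprb4 at chr7:48198776-48198835, all on the minus strand, and Mrgprd at chr7:145321746-145321805 on the plus strand.
Mrgpra3: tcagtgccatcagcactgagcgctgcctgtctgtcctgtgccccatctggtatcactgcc
Mrgprx1: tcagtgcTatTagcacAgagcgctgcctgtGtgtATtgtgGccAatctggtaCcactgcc
Mrgprb4: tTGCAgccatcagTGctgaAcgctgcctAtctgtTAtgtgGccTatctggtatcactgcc
Mrgprd: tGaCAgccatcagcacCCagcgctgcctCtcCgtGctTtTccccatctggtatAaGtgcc

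Even in this best shared stretch Mrgprx1 had 51 of 60 bases of Mrgpra3, and Mrgprb4 and Mrgprd had 48 each. Over the whole coding sequence Mrgpra3 was 62.2% identical to Mrgprx1, 58.0% to Mrgprb4 and 53.7% to Mrgprd, and the lowest pair was Mrgprb4 with Mrgprd at 49.9%. Reads were 75 bases long. Of the windows of that length in GENCODE transcripts, 0.164% of those of Mrgpra3 and 0.723% of those of Mrgprx1 also occurred in another gene, and 0% of those of Mrgprb4 and Mrgprd did. The relatives Mrgpra2a and Mrgpra2b, which are not members, shared 80.4% and 74.8% of their windows, mostly with each other, so their counts are uncertain. Matches elsewhere in the genome were not examined.

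All 10 members are protein-coding genes. In GENCODE coordinates on GRCm38, Nppb lies on chromosome 4 at 147985788 to 147987205, Sst on chromosome 16 at 23889573 to 23890958, Grp on chromosome 18 at 65872820 to 65886596 and Nmb on chromosome 7 at 80902227 to 80905076. Il31ra lies on chromosome 13 at 112519898 to 112594360 and Cysltr2 on chromosome 14 at 73025603 to 73049114. The Mrgpr members are all on chromosome 7, Mrgpra3 at 47588950 to 47601372, Mrgprx1 at 48020971 to 48027597, Mrgprb4 at 48198070 to 48199288 and Mrgprd apart from these at 145314835 to 145324086. Exons of Nmb overlap those of Sec11a on the same strand, and 11.5% of the 75-base windows of Nmb also occurred in Sec11a. Exons of Il31ra overlap Gm3226 on the same strand, and the span of Grp, but no exon, overlaps AC152076.4 on the other strand. The sources used here do not say whether counting used strand, and how reads in these overlaps were divided is not known.

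Per library, between 17273908 and 81968142 reads fell in genes. Burn 3 and control 3 were the deepest, with 5.44% and 4.41% of reads in mitochondrial genes against 1.71% to 2.70% in the other 4. Differences are therefore given also within the deeper pair and within the 4 shallower libraries. The 10 members together held from 6223 to 31887 reads per library. Values below are normalised read counts (CPM, counts scaled to a common library size by TMM) as mean ± SD with n = 3 per group, and 1 read was worth 0.0126 to 0.0556 CPM. Of 13 markers of ganglion neurons found in the tables all were tested and 0 were called, with 2 positive and 11 negative log2 fold changes (median -0.10), and their summed level ran from 9749 to 11760 CPM in burn libraries and from 10480 to 13140 in controls. In whole tissue, fewer cells of a type and less RNA per cell cannot be told apart.

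None of the 10 members passed the test of burn against control (edgeR's quasi-likelihood test, adjusted p under 0.05), where 0.0228% of the 17534 genes tested were called, all of them higher. DESeq2 and limma-voom also called 0 of the 10. At an unadjusted p under 0.05 there was 1 member, Grp, by each of the 3 tools, against 2.96% of all genes by edgeR. The 3 tools used the same reads. For edgeR and limma-voom Grp met the minimum count through the burn libraries only. Its direction was thus a condition of being tested, and its p is no support for a difference. The median log2 fold change of the 10 was -0.08, with 4 positive and 6 negative, beside 0.01 over all genes tested, of which 47.9% were negative. In 9 of the 10 the burn and control values overlapped, and the 2 groups did not overlap in 7.24% of all genes tested. The plot of CPM by library shows this for each gene.

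**Figure D1:**
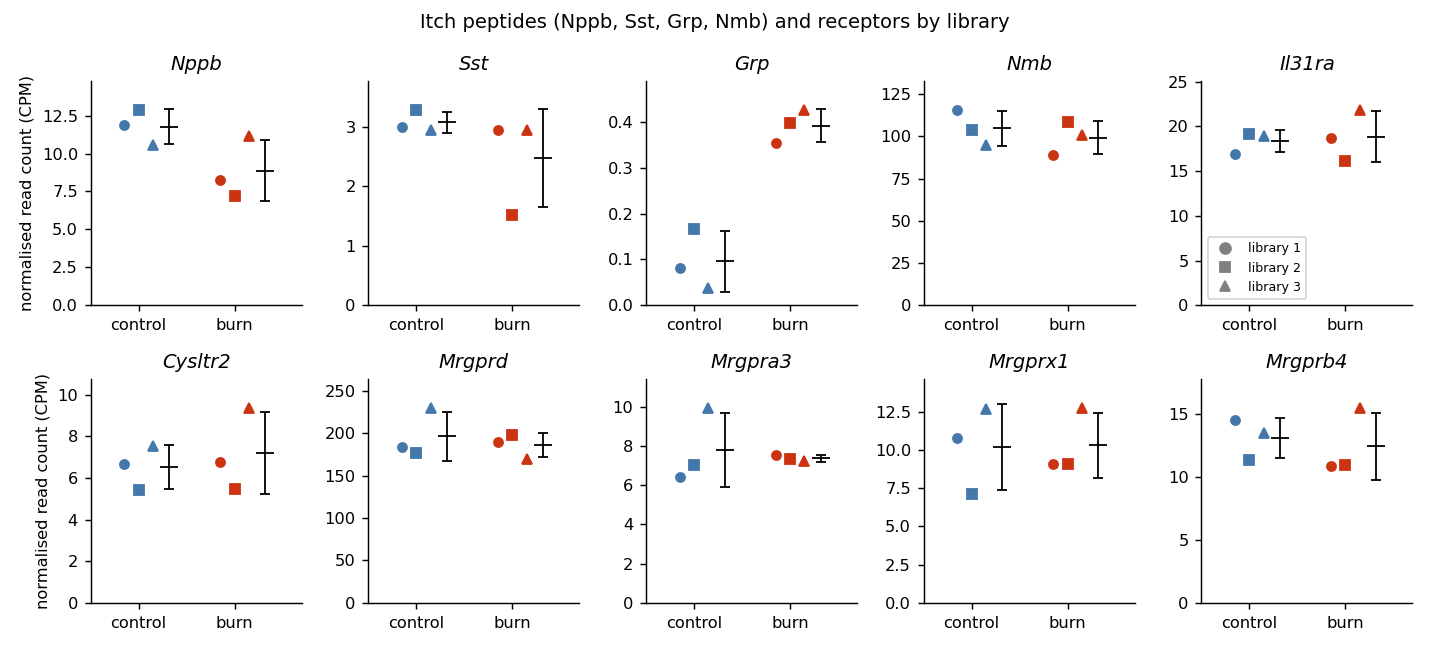
Normalised read count (CPM, vertical axes from 0, each gene on its own scale) of the 10 genes in the 3 control (blue) and 3 burn (red) libraries, with mean ± SD (n = 3) as black bars. The groups overlap for every gene except Grp, where the burn libraries lie between 0.353 and 0.426 CPM and the controls between 0.0377 and 0.167. Grp met the minimum count for testing through the burn libraries only.

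Nppb, the peptide released by the class with Il31ra, stood at 8.26, 7.22 and 11.2 CPM in burn libraries 1 to 3 and at 11.9, 12.9 and 10.6 in controls 1 to 3. Burn 1 and burn 2 lay below every control, and burn 3 lay above control 3. The means were 8.88 ± 2.04 and 11.8 ± 1.14 CPM (n = 3). The log2 fold change of Nppb was -0.40 (SE 0.19, 95% interval -0.84 to 0.04), and it did not pass (edgeR adjusted p 0.9998). The interval reaches from 0.558 to 1.03 times the control level. Within the deeper pair Nppb differed by 0.08 on the log2 scale and within the shallower libraries by -0.68, so the sign was not the same in the 2 sets.

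Sst, the second peptide of these neurons, stood at 2.96, 1.52 and 2.95 CPM in burn 1 to 3 and at 3.004, 3.28 and 2.95 in controls 1 to 3. A single library, burn 2 with 46 reads, lay apart from the rest. For Sst the log2 fold change was -0.31 (SE 0.28, 95% interval -0.95 to 0.34, edgeR adjusted p 0.9998). Without burn 2 the log2 fold change of Sst was -0.05. The deeper pair differed by 0.00 and the shallower libraries by -0.56.

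The receptors of the same class had log2 fold changes nearer to 0. Il31ra, the subunit that binds interleukin-31, had 18.7, 16.1 and 21.8 CPM in burn 1 to 3 and 16.9, 19.2 and 18.9 in controls. Burn libraries were both the lowest and the highest. Its log2 fold change was 0.04 (SE 0.14, 95% interval -0.29 to 0.38). Cysltr2, which binds cysteinyl leukotrienes made by mast cells and other leukocytes, had 6.76, 5.46 and 9.35 CPM in burn 1 to 3 and 6.66, 5.397 and 7.52 in controls. Burn 3 was the highest library, and the other 5 spanned 5.397 to 7.52. The log2 fold change of Cysltr2 was 0.14 (SE 0.23, 95% interval -0.41 to 0.68). Neither passed (edgeR adjusted p 0.9998 for both).

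The ratio of 2 genes within a library does not depend on how libraries are scaled. For each Il31ra read there were 0.442, 0.449 and 0.512 Nppb reads in burn 1 to 3 and 0.702, 0.670 and 0.559 in controls 1 to 3. The groups did not overlap, at 0.467 ± 0.0384 against 0.643 ± 0.0750 (n = 3). For each Cysltr2 read there were 1.22, 1.32 and 1.19 Nppb reads in burn 1 to 3 and 1.78, 2.38 and 1.41 in controls 1 to 3, again without overlap. Of 10 such ratios between itch genes, chosen after the values were seen, these were the 2 without overlap, and no test was made. Both have Nppb as numerator, so they are not independent of each other. Among single genes tested, 7.24% had groups without overlap, and the share over all gene pairs was not computed. Nppb reads per Mrgprd read overlapped, at 0.0435, 0.0365 and 0.0656 in burn 1 to 3 and 0.0649, 0.0729 and 0.0461 in controls. Nppb relative to Sst overlapped, at 2.79, 4.74 and 3.78 after the burn and 3.95, 3.92 and 3.58 in controls. Il31ra relative to its partner subunit Osmr was 0.381 ± 0.0143 in burn and 0.396 ± 0.0425 in control libraries (n = 3), with overlap.

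**Figure D2:**
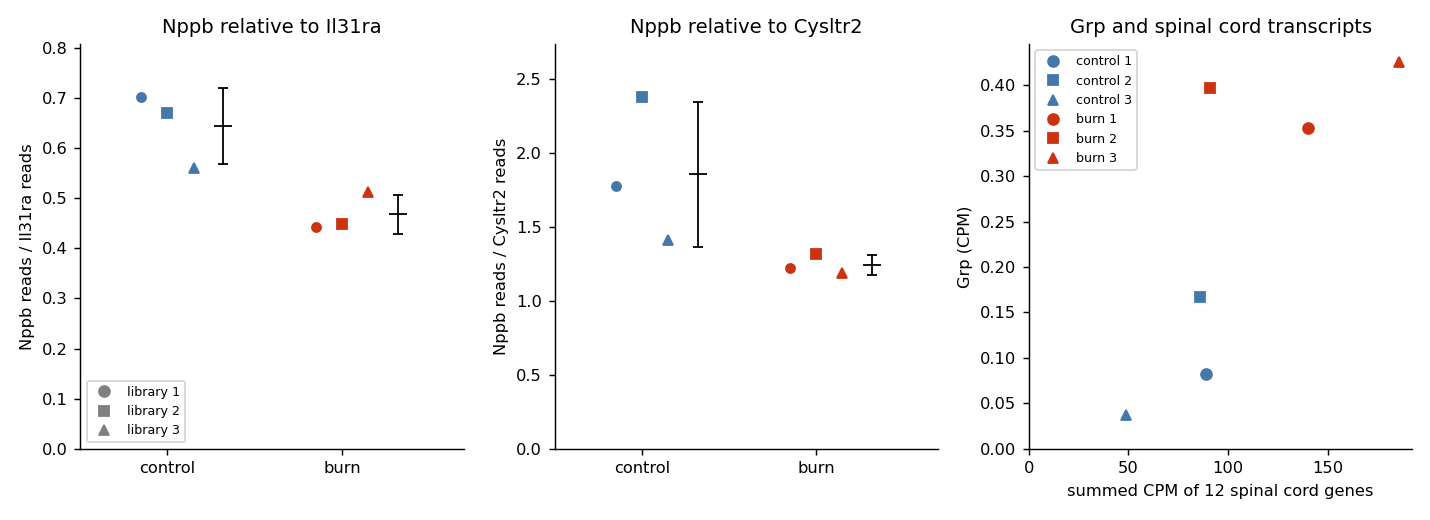
Left and middle, Nppb reads per Il31ra read and per Cysltr2 read in each library (axes from 0; black, mean ± SD, n = 3), with every burn library below every control. Right, Grp (CPM) against the summed CPM of 12 spinal cord genes. The burn libraries are above the controls on both axes, with sums of 90.9 to 186 against 48.9 to 89.0 CPM. Burn 2 and control 1 have near sums, 90.9 and 89.0 CPM, with Grp at 0.397 and 0.0819 CPM.

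Other markers of this class went in several directions. Of 9 markers listed for it, all were tested and 0 were called, with 6 positive and 3 negative. S1pr1, a sphingosine-1-phosphate receptor of these neurons, stood at 20.8 ± 2.07 CPM in burn and 23.7 ± 1.21 in control libraries (n = 3), and Htr1f, a serotonin receptor, at 6.62 ± 2.59 and 6.31 ± 2.35. Nts, which encodes neurotensin and is also known from injured neurons, had 354, 616 and 1351 reads in burn 1 to 3 and 185, 97 and 558 in controls. In CPM Nts stood at 15.6, 20.4 and 20.55 in burn 1 to 3 and at 5.05, 5.397 and 7.01 in controls. Every burn library was above every control, as in 4.33% of all genes tested. The log2 fold change of Nts was 1.69 (SE 0.19), with an edgeR adjusted p of 0.0691. The summed level of the 9 markers ran from 475 to 617 CPM in burn libraries and from 450 to 541 in controls, and Jak1, a kinase that many other cells carry, made up most of it.

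Grp had the fewest reads of the 10 members. There were 8, 12 and 28 reads in burn 1 to 3 and 3, 3 and 3 in controls 1 to 3, or 0.353, 0.397 and 0.426 CPM against 0.0819, 0.167 and 0.0377. All 3 burn libraries were above all 3 controls, where 4.33% of all genes tested had every burn library higher. The means were 0.392 ± 0.0365 and 0.0955 ± 0.0657 CPM (n = 3). The ratio of pooled reads was 6.03, with a 95% exact binomial interval of 2.93 to 14 that covers counting error only. Such intervals also left out 1 for members whose groups overlapped, among them Mrgprd (0.847 to 0.877) and Cysltr2 (1.03 to 1.23). They included 1 for Nmb, Mrgprx1 and Mrgprb4. The fit gave a log2 fold change of 2.40 (SE 0.52), and Grp did not pass (edgeR adjusted p 0.934). Grp met the minimum count through the burn libraries only, so a difference in this direction was a condition of its being tested. The deeper pair differed by 3.19 on the log2 scale and the shallower libraries by 1.59.

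Transcripts of the spinal cord had the same sign as Grp. The list of spinal cord genes was chosen with earlier results of these data known. Counts over it are therefore a description and not a test. Of 12 spinal cord genes all had a positive log2 fold change (median 1.37), 11 had an unadjusted p under 0.05 and 0 were called. Their summed level was 140, 90.9 and 186 CPM in burn 1 to 3 and 89.0, 86.0 and 48.9 in controls 1 to 3, and none of the 12 was at 0. All 3 burn sums were above all 3 control sums, as for Grp, and Mobp and Aqp4, which glia of the cord carry, made up most of each sum. Of the 12, 7 had every burn library above every control in CPM, beside the 4.33% of all genes tested. Among these were Gad2, an enzyme that makes GABA, with 55, 44 and 224 reads in burn 1 to 3 and 31, 13 and 26 in controls 1 to 3, and Lmx1b, a transcription factor of dorsal horn neurons, with 17, 31 and 80 reads against 16, 9 and 31. Gad1, a second enzyme of GABA synthesis, overlapped between the groups, as did Mobp, Aqp4, Olig2 and Slc6a11. In controls 1 to 3 Opalin had 10, 3 and 8 reads, Olig2 6, 7 and 11, and Pax2 2, 6 and 11. Like Grp, these genes met the minimum count mostly through the burn libraries. Their positive sign was thus largely a condition of being tested, and Opalin and Pax2 are among the 7 without overlap. The part of spinal cord transcripts in the Grp difference was not tested. Skeletal muscle genes, at 1993 to 11370 CPM in burn libraries and 808 to 12400 in controls, did not separate the groups.

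Nmb, the fourth peptide, was the most abundant of the 10 per length. It stood at 88.9, 108 and 101 CPM in burn 1 to 3 and at 116, 104 and 95.1 in controls 1 to 3. The groups overlapped, with burn 1 the lowest library and control 1 the highest. Nmb had a log2 fold change of -0.08 (SE 0.12; 95% interval -0.36 to 0.21; edgeR adjusted p 0.9998), which spans 0.778 to 1.16 times the control level. Reads shared with Sec11a limit its absolute level.

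Mrgprd, the marker of the beta-alanine class, had 190, 198 and 170 CPM in burn 1 to 3 and 183, 176 and 230 in controls 1 to 3. Control 3 was the highest and burn 3 the lowest, and the 4 shallower libraries lay between. On the log2 scale the difference was -0.08 (SE 0.14, 95% interval -0.40 to 0.24, edgeR adjusted p 0.9998), or 0.757 to 1.18 times the control level. The deeper pair differed by -0.43 and the shallower libraries by 0.11. Of 6 markers of this class 0 were called. The differences on the log2 scale were, for Lpar3, a lysophosphatidic acid receptor, -0.06 (SE 0.21), for Lpar5 0.01 (SE 0.17), for Prkcq, a protein kinase C, 0.01 (SE 0.12), and for Gfra2, a neurturin co-receptor, 0.03 (SE 0.13).

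Mrgpra3, the chloroquine receptor, had 7.55, 7.35 and 7.21 CPM in burn 1 to 3 and 6.42, 7.01 and 9.93 in controls 1 to 3. The burn libraries lay within the range of the controls, of which control 3 was the highest. For Mrgpra3 the log2 fold change was -0.09 (SE 0.19, 95% interval -0.54 to 0.36). Like Mrgprd, Mrgpra3 was lower in burn 3 than in control 3, by -0.46 on the log2 scale, and differed by 0.15 in the shallower libraries. There were 23.1 to 28.5 Mrgprd reads per Mrgpra3 read over the 6 libraries.

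Mrgprx1 had 9.10, 9.07 and 12.8 CPM in burn 1 to 3 and 10.8, 7.12 and 12.7 in controls 1 to 3. The deeper libraries were the highest of each group. The log2 fold change of 0.01 (SE 0.24, 95% interval -0.55 to 0.57) was the smallest of the 10 in size. Mrgprb4 had 10.9, 10.96 and 15.5 CPM in burn 1 to 3 and 14.5, 11.4 and 13.5 in controls. Burn libraries were again both lowest and highest, with a log2 fold change of -0.08 (SE 0.18, 95% interval -0.50 to 0.35). None of these 3 receptors passed (edgeR adjusted p 0.9998 for each).

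The class with Mrgpra3 had 1 marker with a lower p. Gfra1, a co-receptor of glial cell line-derived neurotrophic factor that other ganglion neurons also carry, stood at 222 ± 8.65 CPM in burn and 166 ± 14.4 in control libraries (n = 3), a log2 fold change of 0.42 (SE 0.11) that did not pass (edgeR adjusted p 0.9998). The summed level of the 6 markers of this class was 249 to 264 CPM in burn libraries and 189 to 225 in controls, of which Gfra1 made up the larger part.

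**Figure D3:**
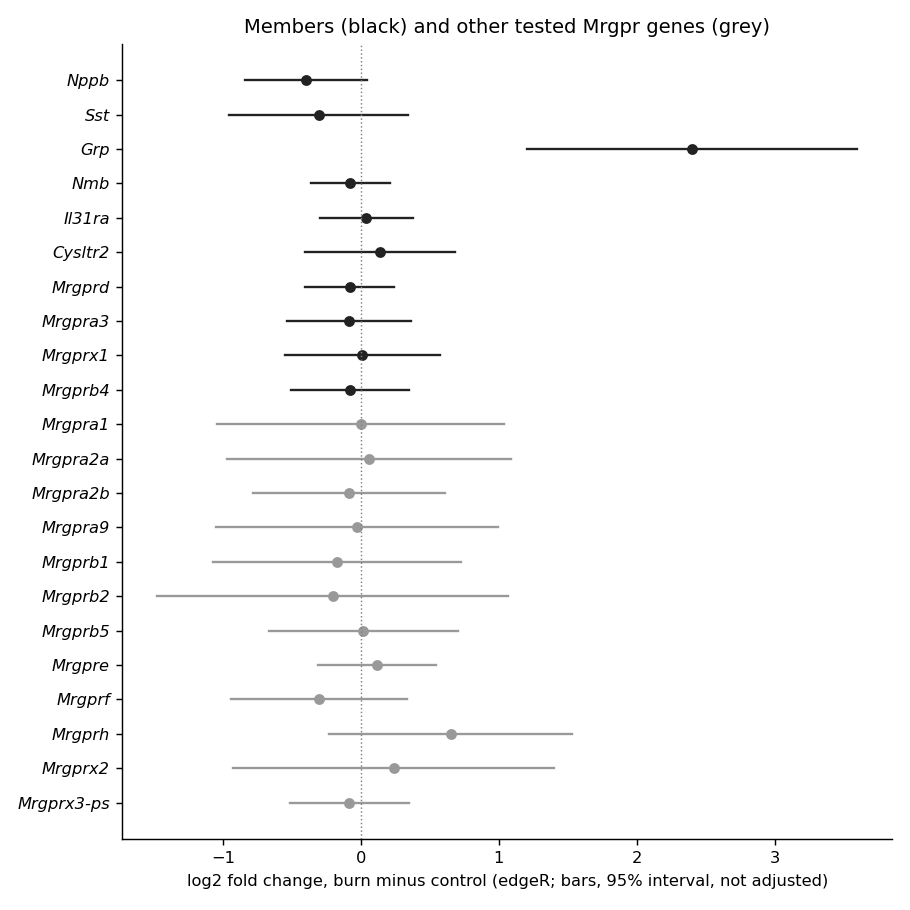
Log2 fold change of burn minus control from edgeR (points) with 95% intervals not adjusted for the number of genes (bars) for the 10 members (black) and the other tested Mrgpr genes (grey). Every interval except that of Grp, at 2.40, includes 0. Grp met the minimum count through the burn libraries only, so a positive value was a condition of its being tested.

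**Figure D4:**
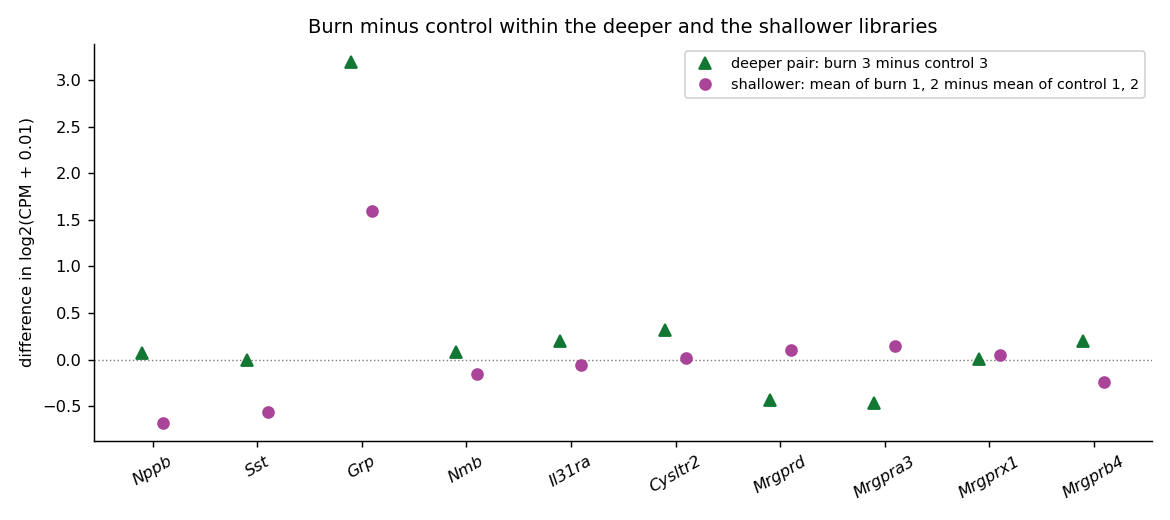
Difference of burn minus control in log2(CPM + 0.01) for each member within the deeper pair (green triangles, 1 library per group) and within the 4 shallower libraries (purple circles, 2 per group). Nppb and Sst lie at -0.68 and -0.56 in the shallower libraries and near 0 in the deeper pair, and Mrgprd and Mrgpra3 lie below 0 in the deeper pair only.

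Across the family, 21 symbols beginning with Mrgpr were in the tables, 16 were tested and 0 were called. Their log2 fold changes were positive for 6 and negative for 10 with a median of -0.05, 0 had an unadjusted p under 0.05, and 0 had groups without overlap. The one with the lowest p was Mrgprh, at 0.491 ± 0.185 CPM in burn and 0.297 ± 0.0368 in control libraries (n = 3). Mrgprf and Mrgpre, which lie apart from the main cluster on chromosome 7, stood at 5.42 ± 1.46 against 6.73 ± 1.95 and at 17.7 ± 2.35 against 16.3 ± 3.62 CPM. Mrgprb5 stood at 5.90 ± 2.39 against 5.86 ± 1.06, Mrgpra2b at 1.51 ± 0.1003 against 1.60 ± 0.538 and Mrgpra9 at 0.607 ± 0.335 against 0.637 ± 0.106. Mrgpra1, Mrgpra2a and Mrgprx2 were under 1 CPM on average in both groups.

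Mrgprb1 and Mrgprb2 are known from mast cells, and Mrgprb2 is the receptor through which basic peptides activate them. Mrgprb2 had 15, 11 and 21 reads in burn 1 to 3 and 21, 15 and 18 in controls, and Mrgprb1 had 50, 22 and 96 and 72, 27 and 114. The summed level of 9 mast cell genes was 79.3 to 100 CPM in burn libraries and 79.7 to 105 in controls, with 0 called and none of the 9 at 0 reads. Kit alone, at 57.8 to 71.5 CPM over the 6 libraries, made up most of each sum, so the sum says little about the other mast cell genes. Mrgpra4 had 37 reads over the 6 libraries and was not tested. Mrgpra6, Mrgprb3 and Mrgprb8 had under 10 reads in all, and Mrgprg had 0.

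Per kilobase of exon, Mrgprd stood at 62.5 ± 9.20 CPM in controls (n = 3). The next of the tested family was Mrgprx3-ps, which GENCODE annotates as a pseudogene, at 32.1 ± 7.80 in controls and 30.4 ± 2.31 CPM per kilobase after the burn. It had 586, 836 and 1979 reads in burn 1 to 3 and 1175, 384 and 2781 in controls 1 to 3. On the same scale in controls Mrgprb4 stood at 10.8 ± 1.31, Mrgprx1 at 8.65 ± 2.39 and Mrgpra3 at 6.01 ± 1.45 CPM per kilobase (n = 3). Of the 75-base windows of Mrgprx3-ps 0% occurred in transcripts of other genes.

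**Figure D5:**
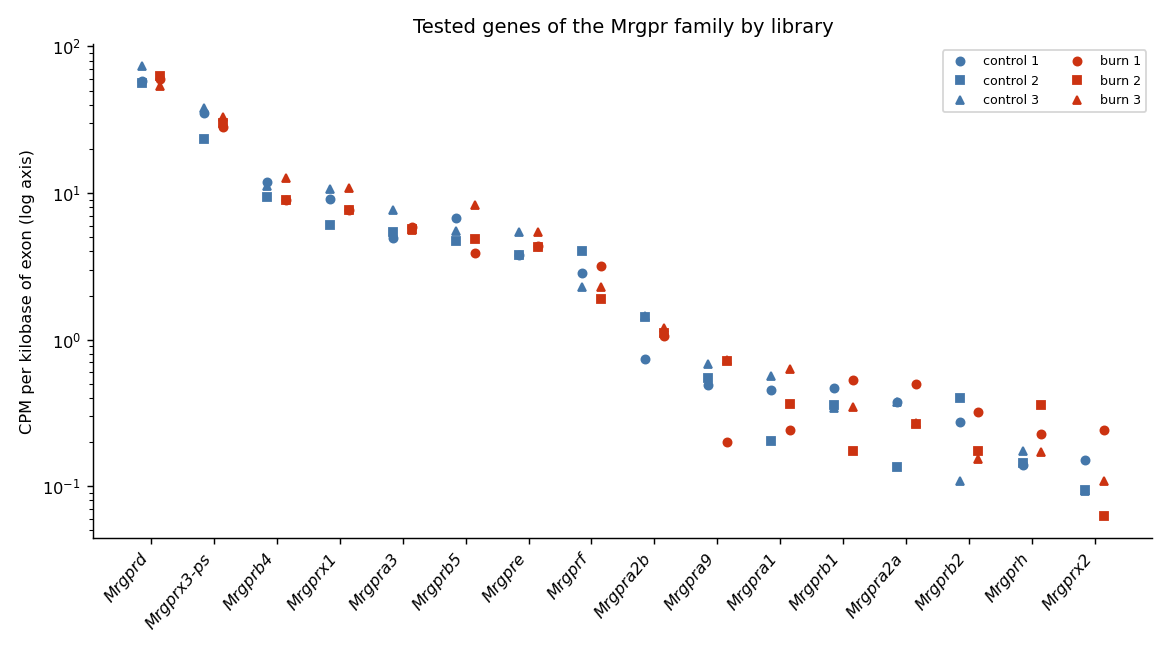
CPM per kilobase of exon (log axis) of the 16 tested Mrgpr genes in each control (blue) and burn (red) library, ordered by their mean. Mrgprd is highest, the pseudogene Mrgprx3-ps second, and the blue and red points of each gene overlap.

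Levels of different genes can be compared only per length. Over the 6 libraries Nmb stood at 112 to 146 CPM per kilobase, above Mrgprd at 54.1 to 73.0 and Nppb at 9.24 to 16.5. Then came Mrgprb4 (mean 10.5), Mrgprx1 (8.69), Mrgpra3 (5.85), Sst (3.85), Il31ra (3.28), Cysltr2 (2.39) and Grp (0.165). The ranges of neighbours overlapped from Nppb to Mrgprb4, from Mrgprb4 to Mrgprx1, from Mrgprx1 to Mrgpra3, from Sst to Il31ra and from Il31ra to Cysltr2. Within a library, each gene was nonetheless above the next in 6 of 6 libraries, except Sst, which was above Il31ra in 5.

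Profiles over the 6 libraries were compared by the root mean square difference of log2 CPM, each centred on its own mean, among 15530 genes with a mean of at least 0 on that scale. Nearest to Nppb were Tmie (0.0875) and Fibin (0.0951), where the median gene was at 0.346. Nearest to Mrgprd were Tomm34 (0.0230), Diras2 (0.0296) and Abcf1 (0.0298), with the median gene at 0.228. Nearest to Mrgpra3 were Sugp1 (0.0466), Brsk1 (0.0466) and Tcerg1l (0.0530), with the median at 0.261. Among the 9 members that reached this level, which leaves out Grp, the nearest pair was Mrgprd with Mrgpra3 (0.104), and the farthest was Sst with Mrgprx1 (0.447). All profiles share the same 6 libraries and their depths.

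Partners of these genes were taken from 4 lists. Receptors of the itch peptides had 7 of 10 members tested, 0 called, 2 positive and 5 negative, with a median log2 fold change of -0.07. The lowest p-values stood at the somatostatin receptors Sstr1 (-0.31, SE 0.24) and Sstr2 (-0.19, SE 0.15) and at Npr3, the clearance receptor of natriuretic peptides (-0.16, SE 0.22). Npr1, the signalling receptor of B-type natriuretic peptide, stood at 11.4 ± 2.50 CPM in burn and 11.8 ± 3.75 in control libraries (n = 3), and Grpr, the receptor of gastrin-releasing peptide, at 0.798 ± 0.146 and 0.675 ± 0.171.

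Receptors of itch cytokines, lipids and amines had 18 of 19 members tested, 0 called, 8 positive and 10 negative, with a median of -0.03. Il13ra1, a receptor subunit of interleukin-13 signalling, stood at 28.1 ± 1.95 CPM in burn and 20.0 ± 4.46 in control libraries (n = 3). Its log2 fold change was 0.49 (SE 0.17). Of the 18 tested, Il13ra1 had all burn libraries above all controls, and F2rl1 and S1pr1 had all burn libraries below, where 7.24% of all genes tested had no overlap. Cysltr1, the leukotriene receptor of leukocytes, stood at 3.80 ± 1.18 CPM in burn and 2.48 ± 0.311 in control libraries. F2rl1, the protease-activated receptor cleaved by tryptase, had 2, 10 and 28 reads in burn 1 to 3 and 23, 9 and 40 in controls 1 to 3, or 0.282 ± 0.174 against 0.544 ± 0.0730 CPM (n = 3), with a fitted log2 difference of -0.82 (SE 0.45), the largest in size of the 18. None of the 3 passed (edgeR adjusted p 0.9998 for each). Il13ra1 and Cysltr1 are also carried by leukocytes. Of 12 macrophage genes listed 11 were tested, of which 0 were called and 10 were positive (median 0.22), with summed levels of 235 to 476 CPM in burn libraries and 209 to 333 in controls and none at 0 reads, and their part in these values was not tested.

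The transducers downstream of these receptors had 15 of 15 members tested, 0 called, 11 positive and 4 negative, with a median of 0.04. Low p-values within the list stood at Jak2, a kinase of cytokine receptors (0.13, SE 0.13), and Scn10a, a sodium channel of nociceptors (0.11, SE 0.13). Plcb3, a phospholipase C of this list, stood at 443 ± 21.6 CPM in burn and 468 ± 41.2 in control libraries (n = 3).

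Ligands and enzymes that make them had 8 of 15 members tested, 0 called, 4 positive and 4 negative, with a median of 0.03. Il33, an alarm cytokine, stood at 21.5 ± 5.41 CPM in burn and 14.8 ± 4.22 in control libraries (n = 3; edgeR adjusted p 0.9998). Edn1, which encodes endothelin-1, stood at -0.37 on the log2 scale (SE 0.41), and Osm, the ligand of Osmr, at 0.32 (SE 0.41). Il31, the ligand of Il31ra, had 0 reads in all 6 libraries, which allows up to 3 reads, or 0.0377 to 0.167 CPM, in a library.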

How the data were processed

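Libraries were stranded total RNA, per the labels' protocols. The deposited values are unscaled read counts for each gene symbol, in a separate file for each library. The submitters' processing notes name STAR, SAMtools and HTSeq, with mm10 and GRCm38 as builds; settings and annotation release are not given in the sources here. The 5 tally lines that name no gene, 49.18% to 56.22% of all entries, were left out. Non-unique alignments made up most of these.

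The whole table was fitted with edgeR 4.0.16 (R 4.3.3): filterByExpr with its minimum count of 10 and total of 15, TMM scaling, robust glmQLFit and two-sided glmQLFTest, with Benjamini-Hochberg adjustment over all genes tested and a threshold of 0.05. DESeq2 1.42.0, limma-voom (limma 3.58.1), other scaling and filters, a depth term, a replicate block and leaving out libraries were alternatives. The SE is the log2 fold change divided by the square root of F. Exon length is the union of the GENCODE exons of the gene. Coding sequences were aligned with mafft 7.526, and promoters came from RefSeq (8 of 10 members). The members and lists were chosen with earlier results of these data known. Named genes were all members, Mrgpr genes with at least 10 reads in all, the 3 list members of lowest p in each partner list, and nearest profiles, apart from a few not reported here. Other genes named were chosen after their values were seen.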

Additional observations from a re-analysis of the deposited data

How the results depend on the processing

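Counting depth and 3 libraries per group limit the precision: the 95% intervals of the 9 members other than Grp reached from 0.516 to 1.61 times the control level. None of the 10 members was called under any of the 15 alternatives run. Over all genes 4 were called, and the count was 14 with no low-count filter, 28 with DESeq2, 38 with a term for depth (17 higher, 21 lower), 15 in the 4 shallower libraries alone (11 higher, 4 lower) and 7 at an adjusted p under 0.1. Leaving out 1 library gave 1 to 6 calls, with 1 call without burn 2, control 1, control 2 or control 3. With a replicate block over the libraries numbered 1 and 2 there were 4 calls and 0 members. Libraries of equal number did not deviate together (correlation of deviations -0.09 for number 1 and -0.06 for number 2), so the numbers were not taken to pair the samples. The higher correlations across groups were those of burn 1 with control 2 (0.44), burn 2 with control 1 (0.38) and burn 3 with control 3 (0.44), an arrangement the labels do not give.

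Nppb, Sst and Grp kept their sign in every alternative that gave a value. Grp met the minimum count through the burn libraries only, so wherever that count applied its sign was a condition of being tested. With no low-count filter Grp stood at 2.36, from the same reads. Nppb lay between -0.66 and -0.27 (14 settings), Sst between -0.53 and -0.05, and Grp between 1.79 and 2.83 (11 settings, adjusted p from 0.21 to 0.9999 over edgeR, DESeq2 and limma-voom). Grp was not tested under the 1 CPM filter, the replicate block or the 4 shallower libraries, where it did not meet the minimum. The sign turned for Il31ra with the replicate block (-0.041) and in the shallower libraries (-0.039), for Mrgprd (0.12 in each) and for Mrgpra3 (0.17 in each), and for Mrgprx1 with no filter (-0.0051) and with limma-voom (-0.0080). The cause was not tested. Leaving out 1 library gave ranges that crossed 0 for Nmb (-0.14 to 0.0006), Il31ra (-0.067 to 0.14), Cysltr2 (-0.10 to 0.30), Mrgprd (-0.15 to 0.056), Mrgpra3 (-0.21 to 0.14), Mrgprx1 (-0.19 to 0.20), Mrgprb4 (-0.26 to 0.0081), Edn1 (-0.65 to 0.044) and Npr3 (-0.35 to 0.011).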
